A study of Mus musculus with 8 samples.

Results

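The chemokine system genes described here are those whose array gene name is a numbered CC or CXC chemokine, fractalkine (Cx3cl1), or a receptor named Ccr with a number, Cx3cr1, Cxcr1 to Cxcr3 or Cxcr5 to Cxcr7. The rule found 49 genes with 64 probes, of 30028 genes with 39429 probes on the array, and all 49 symbols matched a RefSeq gene. They comprise 33 ligands and 16 receptors. The rule used names alone and no measured value. The samples were 4 from C57BL/6 mice on a high-fat diet and 4 from C57BL/6 mice on a control (chow) diet, described in the labels as pancreatic beta cells and as biological replicates. A separate Agilent array was used for each, in 1 colour (Cy3). No transgene or further treatment is named. The age of the mice, the length of the diet and the way the cells were isolated are not given in the sources used here.

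Chemokines are small secreted proteins that steer leukocytes along a gradient. They bind G protein-coupled receptors on the responding cell, and one ligand often has several receptors. Inflammatory members such as Ccl2 or Cxcl10 are induced by cytokines, while homeostatic members such as Cxcl12, Cxcl13 and Ccl19 place cells within tissues. In the pancreatic islet, chemokines are known from both endocrine and stromal cells, and most of the receptors mark resident or passing leukocytes. Fractalkine and its receptor Cx3cr1 have been described in mice as modulators of insulin secretion.

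Each array carried 43020 non-control spots, with 0 saturated. Levels are given below as the log2 signal of a probe relative to the 75th percentile of its array, so 0 is that percentile and each unit is a doubling. They serve to compare arrays for 1 probe and not 1 gene with another. The arrays lay on 2 slides with 2 arrays of each diet on each. High-fat arrays held positions 2 and 4 and control arrays positions 1 and 3 on both slides, so an effect of position cannot be told apart from one of diet. All 12 beta cell markers were measured, and Ins1 averaged 8.28 in high-fat and 8.25 in control samples. Markers of other pancreatic and immune cells were also measured, among them all 14 of the acinar list, 7 of 8 of the alpha cell list and 15 of 16 of the macrophage list. Acinar signal was high, with Cel at 8.73 in high-fat and 8.53 in control samples. In multiples of the 75th percentile, the acinar markers summed to 2898 to 5190 in high-fat and 2380 to 4883 in control samples. The beta cell markers summed to 906 to 1188 and 826 to 1162. The acinar sum was lowest in control replicate 1. In such samples, for every gene below, fewer cells of a type and less RNA per cell cannot be told apart.

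A probe well above background on at least 4 of the 8 arrays was found for 32 of the 49 genes, which were 22 ligands and 10 receptors. Over all genes of the array the share was 66.6%. By probe, 41 of the 64 reached this mark, beside 66.2% of all probes. Of these 32, 20 were above background on all 8 arrays, where 89.7% of all detected genes were. The detected ligands were the CC ligands Ccl1, Ccl2, Ccl3, Ccl4, Ccl5, Ccl6, Ccl8, Ccl9, Ccl11, Ccl12, Ccl19, Ccl24, Ccl25 and Ccl28, the CXC ligands Cxcl9 to Cxcl14 and Cxcl16, and Cx3cl1. The detected receptors included Ccr3, Ccr6, Ccr7, Ccr8, Ccr9, Cx3cr1, Cxcr3, Cxcr5 and Cxcr6. Detection was uneven between diets for 11 of the 32. The 10 found on fewer high-fat arrays stand beside 4.10% of all detected genes, and the 1 found on fewer control arrays beside 3.53%. Of all spots, 64.5% to 67.2% were above background on high-fat arrays and 63.6% to 68.6% on control arrays. The 6 ligands Ccl8, Ccl12, Ccl24, Cxcl9, Cxcl13 and Cxcl14 and 4 receptors, among them Ccr6, Cxcr3 and Cxcr5, were above background on fewer high-fat than control arrays. Ccr3, the eotaxin receptor of eosinophils, was above background on 4 high-fat and 2 control arrays.

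**Figure D1:**
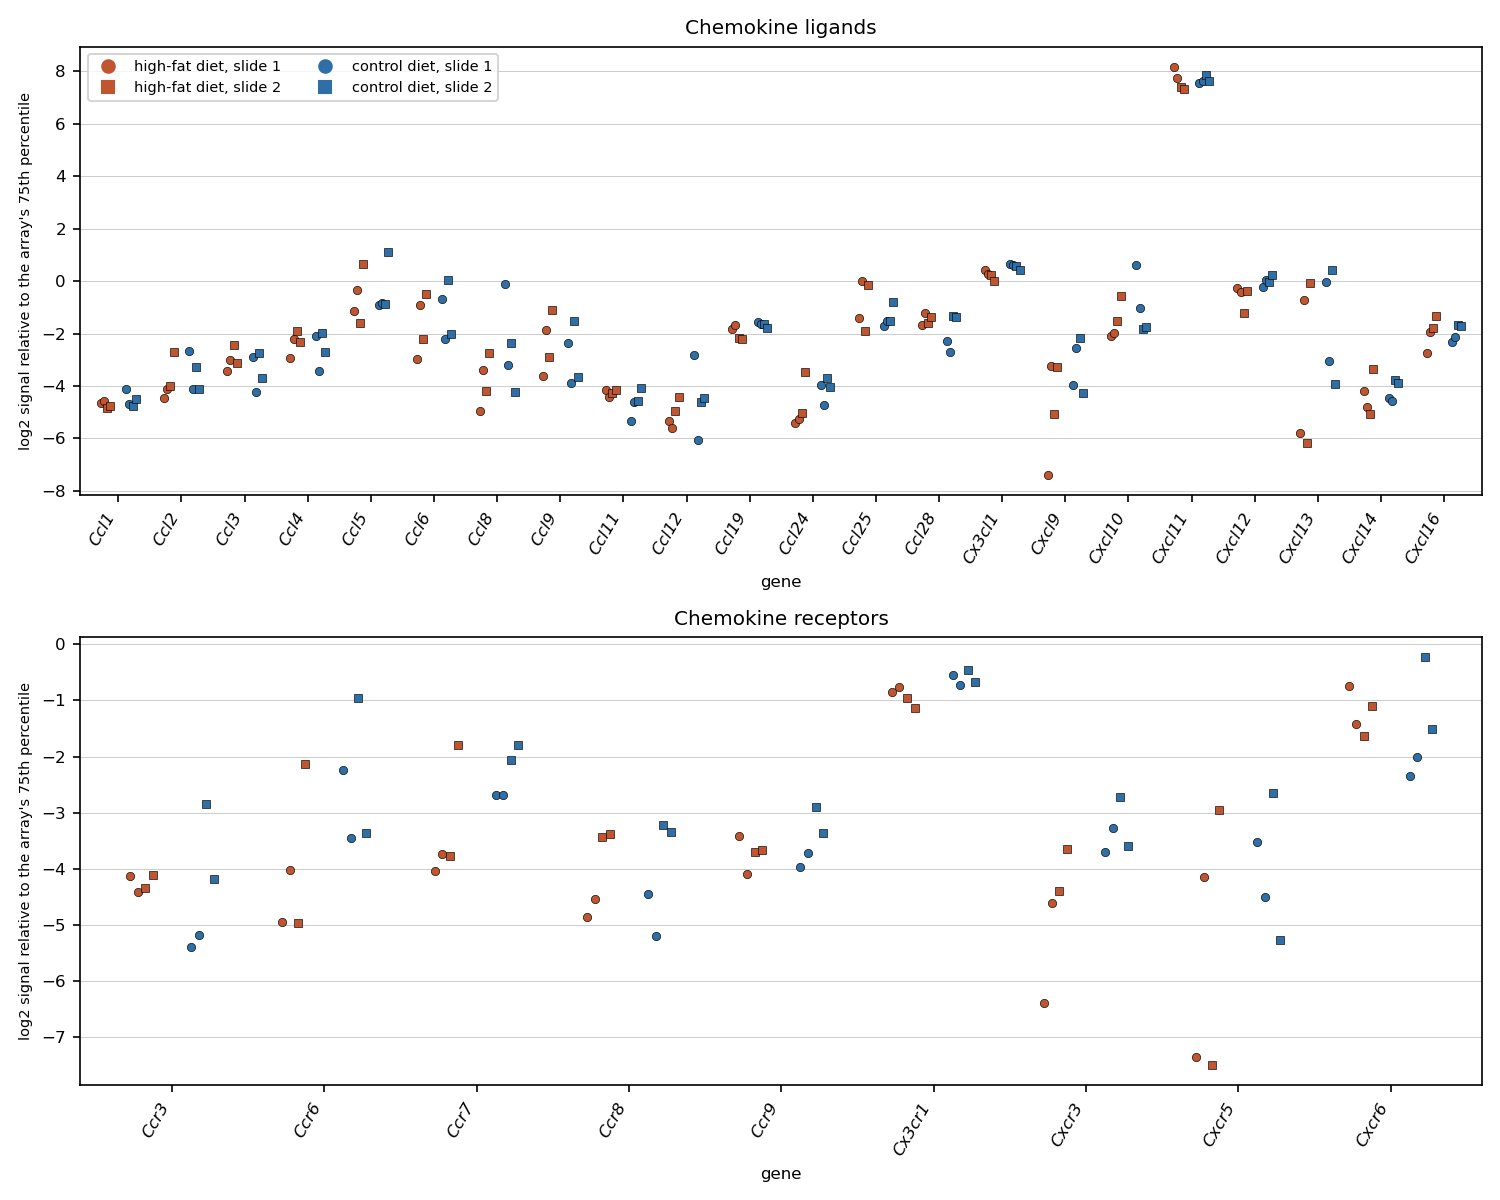
Log2 signal relative to the 75th percentile of the array (vertical axis) of 31 detected chemokine system genes (horizontal axis), ligands above and receptors below. Each point is 1 array, high-fat left of control for each gene, with circles for slide 1 and squares for slide 2. The diets overlap for all genes shown but Cx3cr1 and Cxcl12, and the widest spread over the 8 arrays, 6.57 log2 units, is that of Cxcl13.

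Of the 17 undetected genes, 13 were above background on no array, beside 75.2% of all undetected genes. The neutrophil attractants Cxcl1, Cxcl2, Cxcl3 and Cxcl5 and the epithelial Cxcl15, whose probes span chr5:91190490-91334593 (mm9), were above background on no array. The receptor Cxcr1 was above background on none either. Cxcr2, a receptor of the neutrophil attractants, was above background on 1 control array. The neighbouring interferon-induced trio Cxcl9, Cxcl10 and Cxcl11, whose probes span chr5:92752191-92788626, passed the detection filter, Cxcl11 through probes of repeat-like sequence. On chromosome 11, 5 of the 6 genes of the group around Ccl2 at chr11:81850650-81990227 were detected, the exception being Ccl7, which was above background on 1 control array. All 5 of the Ccl5, Ccl9, Ccl6, Ccl3 and Ccl4 group at chr11:83339296-83478111 were detected. Ccr4 and its ligand Ccl22 were above background on no array, and Ccl17, its other ligand, on 1 high-fat and 1 control array. Ccr1 and Ccr2, the main receptors of inflammatory monocytes, were above background on no array although their chromosome 9 neighbours Ccr9, Cxcr6 and Ccr3 were detected. The remaining undetected genes were Ccl20, Ccl26 and Cxcl17, above background on no array, and Ccr10, on 1 control array.

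The comparison asked which of these genes changed with the diet. None of the 32 detected genes passed an adjusted p of 0.05 in limma, and neither did any of the 19995 genes tested (0%). Adjusted p-values of the 31 genes described singly lay between 0.776 and 1.00. At an unadjusted p under 0.05, 0 of the 32 were higher in high-fat samples and 5 were lower, among them Cx3cl1, Cx3cr1, Cxcr3 and Cxcl12. Over all genes tested, 2.59% were higher and 3.27% lower by the same measure. The log2 difference (high-fat minus control) lay above 0 for 9 of the 32 genes and below 0 for 23. Of all genes 50.2% were above 0. The median of the 32 differences was -0.29, beside 0.00093 over all genes. With normexp background correction 23 of the 32 lay above 0, and 12 with normexp fitted without 7 smeared spots. The median over all genes was 0.13 and 0.03 in those fits, and the share of all genes above 0 was not counted there. Of the 31 genes described singly, 13 changed sign with normexp. Without the smeared spots only Ccl1, Ccl24 and Cxcl16 of those changed sign.

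No gene of the 32 was higher on every high-fat array than on every control array, and 3 were lower on every high-fat array, among them Cx3cr1 and Cxcl12. Over all genes with 8 values these shares were 1.73% and 1.66%. The 17 undetected genes can be included by testing without the filter on dim probes. Of all 49 genes, 13 then had a difference above 0 and 36 below, with a median of -0.24, while 51.7% of all 30028 genes lay above 0. At an unadjusted p under 0.05, 1 of the 49 was then higher (2.01% of all genes) and 6 were lower (2.56%). The higher one was Ccr2, at -5.42 ± 0.23 in high-fat and -6.29 ± 0.77 in control samples (SD, n = 4 each), levels that were not well above background on any array. A lower one among the undetected genes was Cxcr2, at -7.36 ± 0.36 in high-fat and -5.85 ± 1.39 in control samples, above background on 1 control array.

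Slides gave unequal answers for some genes. Computed on each slide alone, 16 of the 32 genes had a difference below 0 on both slides, 5 had one above 0 on both, and 11 had unequal signs. Ccl3, Ccl4, Ccl9, Ccl11 and Ccl25 were those above 0 on both slides. Cxcl10, an interferon-induced attractant of activated T cells, differed by -1.84 on slide 1 and 0.73 on slide 2. Its highest array was control replicate 1, on slide 1, at 0.62.

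**Figure D2:**
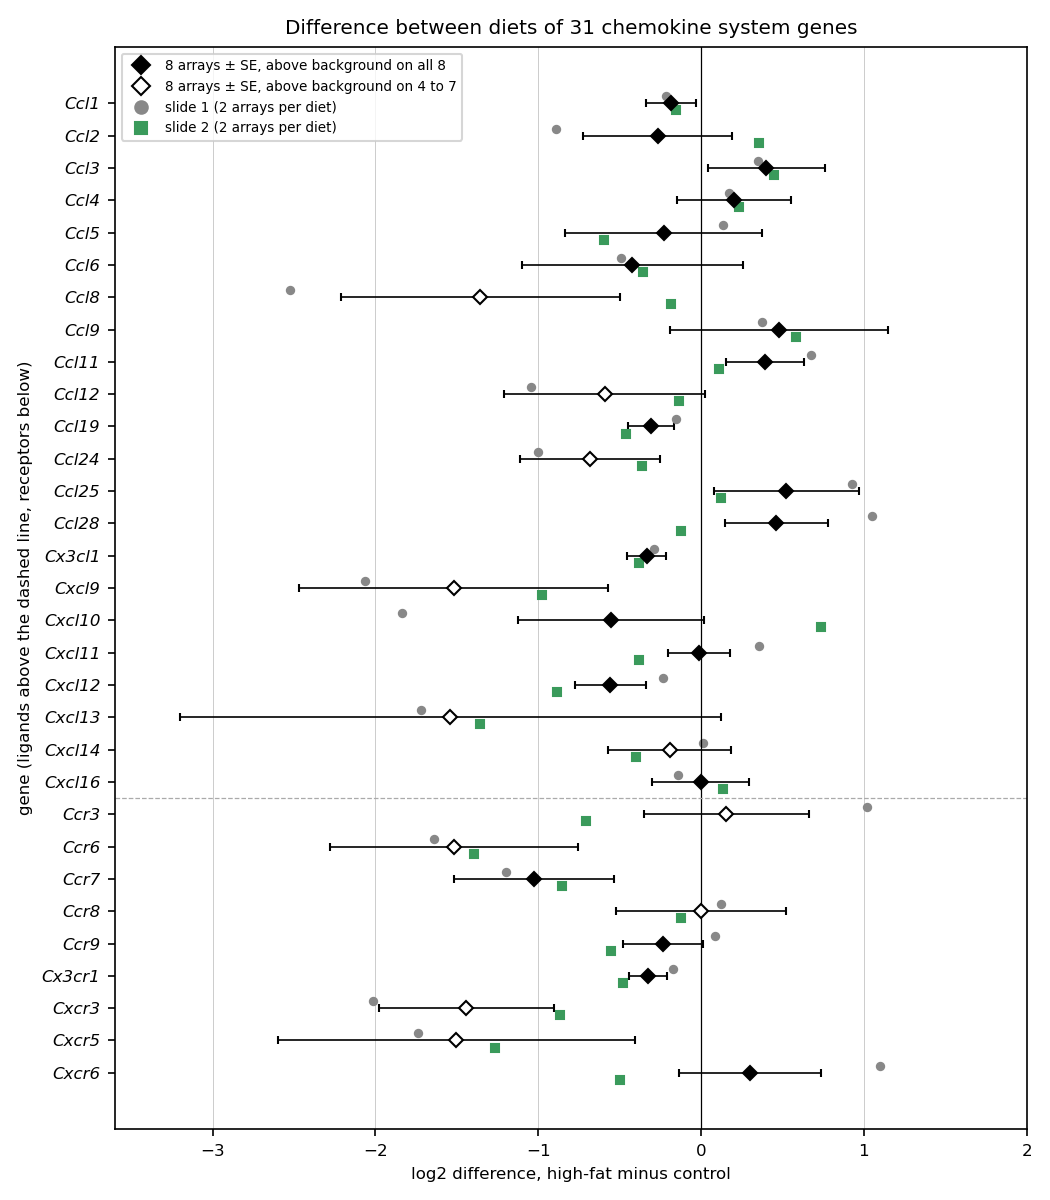
Log2 difference, high-fat minus control (horizontal axis), of 31 detected chemokine system genes (vertical axis), as the estimate over 8 arrays with its SE (diamonds, filled where the probe was above background on all 8 arrays), with the estimates from slide 1 (circles) and slide 2 (squares). Estimates run from -1.54 to 0.52, 22 lie below 0, and 11 genes have unequal signs on the slides. With normexp background correction, which moved the median of all genes by 0.13, 22 lie above 0.

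Among the ligands, Cx3cl1 had the smallest unadjusted p. Fractalkine is made as a membrane-tethered protein that can be shed. Its probe lies at chr8:97306185-97306244 on the plus strand (mm9, as are all positions here), and is shown because the fractalkine result rests on it alone.
Cx3cl1: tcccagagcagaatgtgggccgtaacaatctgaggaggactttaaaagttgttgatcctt
The Cx3cl1 level was 0.43, 0.26, 0.23 and 0.01 in high-fat samples, against 0.66, 0.61, 0.58 and 0.42 in control samples. Only high-fat replicate 1 reached into the control range, at the level of control replicate 4. The difference was -0.33 ± 0.12 (log2, SE; ratio of high-fat over control 0.793), with unadjusted p 0.0217 and adjusted p 0.776 in limma. It was -0.29 on slide 1 and -0.38 on slide 2, and stayed between -0.40 and -0.23 over 22 other settings.

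Cxcl12, a homeostatic chemokine of stromal and endothelial cells that keeps haematopoietic cells in place, was read by 2 probes that lie 6141 bases apart on chromosome 6, both on the plus strand. Both are shown because they are separate readings of the same gene. Probe 1, at chr6:117131227-117131286, was the tested one, and probe 2 lies at chr6:117125026-117125085.
Cxcl12 probe 1: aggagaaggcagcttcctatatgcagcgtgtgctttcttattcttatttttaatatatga
Cxcl12 probe 2: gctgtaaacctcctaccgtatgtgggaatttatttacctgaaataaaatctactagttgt
The level of probe 1 was -0.26, -0.41, -1.20 and -0.38 in high-fat samples, against -0.24, 0.04, -0.05 and 0.24 in control samples. The diets did not overlap, but high-fat replicate 1 and control replicate 1 differed by little, and high-fat replicate 3 stood far below the rest. The difference was -0.56 ± 0.22 (unadjusted p 0.0334, adjusted p 0.804, limma), or -0.23 on slide 1 and -0.88 on slide 2. Without high-fat replicate 3 it was -0.34. Probe 2 read -2.75, -3.07, -3.81 and -2.94 in high-fat samples, against -2.95, -1.73, -3.13 and -1.57 in control samples. The diets overlapped there, with a difference of -0.80 ± 0.41.

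Cxcl11, an interferon-induced ligand of Cxcr3, was read by 2 probes 13 bases apart on the minus strand of chromosome 5, at chr5:92788567-92788626 (probe 1) and chr5:92788640-92788699 (probe 2). C57BL/6 mice are known to carry a frameshift in this gene. The probes are shown because neither sequence is clearly particular to the gene. Probe 1 shares runs of at least 20 bases with 5 probes of other genes on the array and with 22 of 32851 RefSeq promoter windows. Probe 2 shares such a run with none of the other genes' probes. The capitals mark the 31 bases of probe 1 covered by the runs shared with other probes, and this stretch resembles the dispersed B1 repeat of rodents. Probe 2 resembles an earlier stretch of the same repeat, and the lack of an exact run of 20 bases does not make it specific.
Cxcl11 probe 1: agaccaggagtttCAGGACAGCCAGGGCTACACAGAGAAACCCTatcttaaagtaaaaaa
Cxcl11 probe 2: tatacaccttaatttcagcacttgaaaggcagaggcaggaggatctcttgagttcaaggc
Probe 1 read 8.14, 7.73, 7.38 and 7.31 in high-fat samples, against 7.55, 7.61, 7.84 and 7.61 in control samples, a difference of -0.01 ± 0.19. Probe 2 read 1.67, 1.06, 1.61 and 1.18 in high-fat samples, against 1.85, 1.42, 2.13 and 1.57 in control samples, a difference of -0.36 ± 0.21. The diets overlapped on both probes. How much of either signal came from Cxcl11 RNA was not tested. Probe 1 was the only one of the 64 probes that shared a run of 20 bases with a probe of another gene.

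Ccl5, an attractant of T cells, varied from array to array. Its level was -1.13, -0.34, -1.60 and 0.65 in high-fat samples, against -0.91, -0.83, -0.88 and 1.12 in control samples. Replicate 4 was the highest of its diet in both groups, and the difference was -0.23 ± 0.60 (adjusted p 0.970, limma). Ccl3 and Ccl4, macrophage inflammatory proteins that attract monocytes and T cells, differed by 0.40 ± 0.36 and 0.20 ± 0.35. Ccl25, a thymic and intestinal ligand of Ccr9, had the difference farthest above 0 of the 32. Its level was -1.39, 0.01, -1.91 and -0.16 in high-fat samples, against -1.71, -1.53, -1.53 and -0.78 in control samples. High-fat replicates 2 and 4 lay above all control samples and replicate 3 below them, for a difference of 0.52 ± 0.44 (adjusted p 0.933, limma). A second Ccl25 probe above background on all 8 arrays gave 0.35 ± 0.20, while the 2 dim ones gave -0.19 ± 0.68 and -0.05 ± 0.15.

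Ccl19, which guides Ccr7-bearing dendritic cells and T cells, was read by 3 probes that disagreed in sign. The tested probe read -1.84, -1.68, -2.16 and -2.20 in high-fat samples, against -1.56, -1.66, -1.65 and -1.79 in control samples. High-fat replicate 2 lay within the control range and the others below it, and the difference was -0.31 ± 0.14 (unadjusted p 0.0589, adjusted p 0.842, limma). With the slide as a block the unadjusted p was 0.0219 and the adjusted p 0.627. With normexp the sign turned, at 0.16. The other probes gave -0.14 ± 0.39 and 0.10 ± 0.19. The Ccl19 region of mouse chromosome 4 is known to hold near-identical copies, so these probes may read more than the named gene.

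None of the monocyte-attracting ligands passed. Ccl2 was printed as 10 spots per array, and the SD between those spots was 0.12 to 0.49 log2 units. Its level was -4.47, -4.11, -4.01 and -2.69 in high-fat samples, against -2.67, -4.13, -3.28 and -4.13 in control samples. The diets overlapped, the SD between samples was 0.78 in high-fat and 0.71 in control, and the difference was -0.27 ± 0.46. Ccl8 and Ccl12, its neighbours, differed by -1.36 ± 0.85 and -0.59 ± 0.62, and both were highest in control replicate 1. Without that sample the differences were -0.57 and -0.0312. The sign of Ccl12 turned with normexp, to 0.50, while that of Ccl8 did not turn. The Ccr1 ligands Ccl6 and Ccl9 differed by -0.42 ± 0.68 and 0.48 ± 0.67, and the eotaxins Ccl11 and Ccl24 by 0.39 ± 0.24 and -0.68 ± 0.43. The sign of Ccl24 turned with normexp, to 0.66. Ccl1, a Ccr8 ligand, differed by -0.18 ± 0.15 (0.76 with normexp), and Ccl28, a mucosal ligand of Ccr10, by 0.46 ± 0.32, or 1.05 on slide 1 and -0.12 on slide 2.

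Among the remaining CXC ligands, Cxcl9 was lower in high-fat samples on both of its probes, by -1.52 ± 0.95 and -0.74 ± 0.44, and neither passed. The sign of the tested Cxcl9 probe turned with normexp, to 0.14. High-fat replicate 1 was the lowest array on both probes, and without it the tested probe differed by -0.64. Cxcl10 differed by -0.55 ± 0.57, or -0.0141 without control replicate 1. Cxcl16, a membrane-bound ligand of Cxcr6, differed by -0.0031 ± 0.30, and Cxcl14 by -0.19 ± 0.38. Both turned above 0 with normexp, to 0.45 and 0.61.

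Cx3cr1, the fractalkine receptor of macrophages and some T and NK cells, was read by 3 probes on the minus strand of chromosome 9. Probe 1 (chr9:119957811-119957870) was tested, probe 2 lies at chr9:119957806-119957865 and probe 3 at chr9:119959018-119959077. They are shown because probes 1 and 2 are not independent readings: they share 55 bases, in capitals, whereas probe 3 shares none with them.
Cx3cr1 probe 1: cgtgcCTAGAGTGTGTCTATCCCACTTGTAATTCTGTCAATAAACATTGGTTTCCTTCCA
Cx3cr1 probe 2: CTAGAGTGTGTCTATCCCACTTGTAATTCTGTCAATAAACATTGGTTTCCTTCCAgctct
Cx3cr1 probe 3: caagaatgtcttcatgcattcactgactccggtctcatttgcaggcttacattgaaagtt
Probe 1 read -0.85, -0.76, -0.95 and -1.13 in high-fat samples, against -0.54, -0.73, -0.45 and -0.67 in control samples. All 4 high-fat samples lay below all 4 control samples, with high-fat replicate 2 and control replicate 2 nearly level. The difference was -0.33 ± 0.12 (ratio of high-fat over control 0.798, unadjusted p 0.0251, adjusted p 0.776, limma), or -0.17 on slide 1 and -0.48 on slide 2. Probe 2 gave -0.21 ± 0.14 and probe 3 gave -0.32 ± 0.19, with overlapping diets on both. The sign held in 22 other settings, between -0.48 and -0.12.

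Cxcr3, the receptor of activated T cells for Cxcl9, Cxcl10 and Cxcl11, is read by a probe at chrX:98926920-98926979 on the minus strand. Its level was -6.39, -4.61, -4.40 and -3.65 in high-fat samples, against -3.70, -3.27, -2.72 and -3.59 in control samples. High-fat replicate 4 lay inside the control range, and the other 3 high-fat samples below it. The difference was -1.44 ± 0.54 (unadjusted p 0.0270, adjusted p 0.781, limma), -0.90 without high-fat replicate 1, which was the lowest array, and 0.36 with normexp.

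Ccr7 and Ccr6 came next among the receptors by p. Ccr7, which brings T cells and dendritic cells to lymph nodes, read -4.03, -3.73, -3.77 and -1.79 in high-fat samples, against -2.68, -2.69, -2.06 and -1.79 in control samples. High-fat replicate 4 was level with the highest control sample and the other 3 lay below all control samples. The difference was -1.03 ± 0.49 (unadjusted p 0.0689, adjusted p 0.856, limma), and it turned to 0.17 with normexp. With the slide as a block the unadjusted p was 0.0331 and the adjusted p 0.647. Without high-fat replicate 4 the difference was -1.54. Ccr6, found on B cells and Th17 cells, read -4.94, -4.03, -4.97 and -2.13 in high-fat samples, against -2.24, -3.45, -0.95 and -3.36 in control samples. The diets overlapped through high-fat replicate 4, and the difference was -1.52 ± 0.76 (unadjusted p 0.0813, adjusted p 0.864, limma), or 0.01 with normexp. Of the other receptors, Ccr3 differed by 0.15 ± 0.51, Ccr8 by 0.0011 ± 0.52, Ccr9 by -0.23 ± 0.25 and Cxcr6 by 0.30 ± 0.44. The signs of Ccr3 and Cxcr6 turned on slide 2, to -0.71 and -0.50, and that of Ccr9 with normexp, to 0.54.

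**Figure D3:**
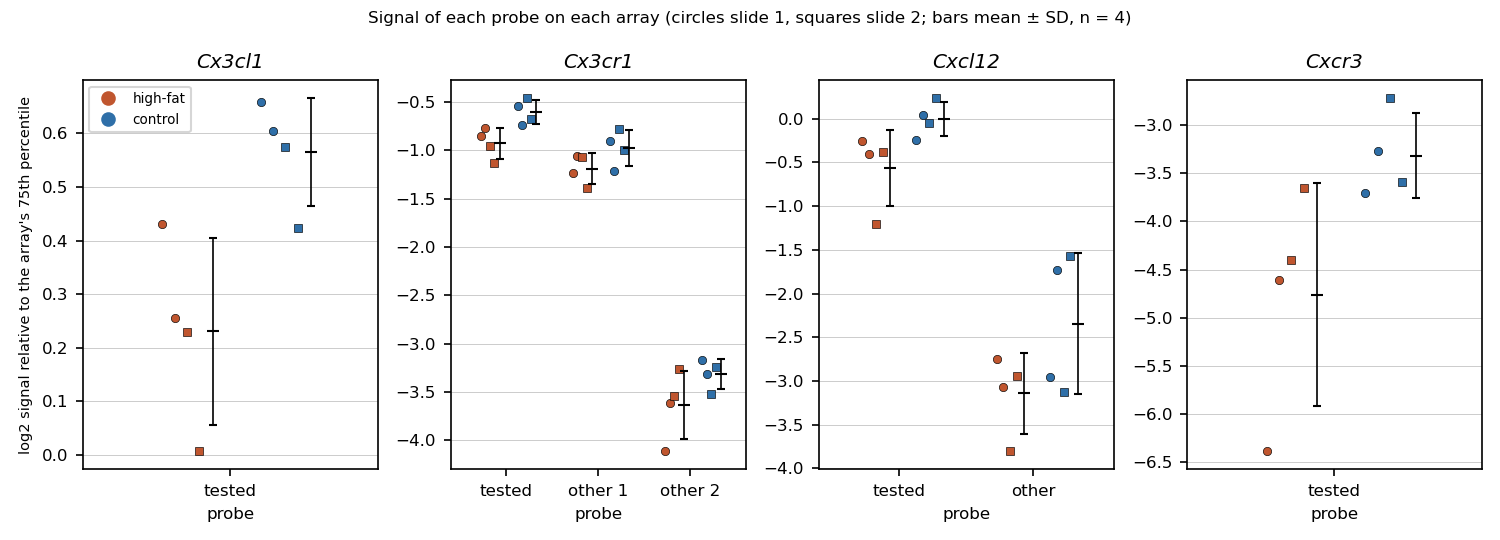
Log2 signal relative to the 75th percentile of the array (vertical axes, each with its own range) of every probe (horizontal axes) of Cx3cl1, Cx3cr1, Cxcl12 and Cxcr3, high-fat left of control. Points are arrays, circles for slide 1 and squares for slide 2, and bars are the mean ± SD (n = 4). The diets are apart on the tested probes of Cx3cr1 and Cxcl12 and overlap on every other probe. Cxcr3 turned to 0.36 with normexp, but did not turn with normexp without smeared spots.

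Marker lists of the leukocytes that carry these receptors were read on the same arrays. Of 15 measured macrophage markers, 14 had a difference below 0, with a median of -0.37 and none at an unadjusted p under 0.05. With normexp 10 of these markers were below 0, and 12 with normexp without smeared spots. Their summed linear level, in multiples of the 75th percentile, was 22.7 to 30.1 in high-fat samples and 28.5 to 38.4 in control samples. Cd163 alone of that list was not detected. Of 12 measured T and NK cell markers, 8 were below 0 (5 with normexp, 6 with normexp without smeared spots). Lck was lower at an unadjusted p under 0.05, and Cd247, Ncr1, Klrb1c, Klrk1 and Gzmb were not detected. The sums were 12.1 to 18.1 in high-fat and 11.2 to 17.7 in control samples. Bright probes set such sums and dim markers hardly enter them. Cd3e averaged 2.96 in high-fat and 2.75 in control samples, where Cd3d averaged -5.46 and -3.40. Of 11 dendritic cell markers, 9 were below 0 (5 with normexp, 8 with normexp without smeared spots). Clec9a was lower at an unadjusted p under 0.05 and Cd209a was not detected. The sums were 67.9 to 81.2 in high-fat and 80.6 to 102.8 in control samples. Siglech, the brightest of them, weighs most in these sums. It averaged 5.44 in high-fat and 5.60 in control samples, where Clec9a averaged -5.62 and -4.26. Of 5 measured neutrophil markers 3 were above 0, and of 11 stellate and fibroblast markers 8. Of 12 endothelial markers 10 were above 0 (6 with normexp, 10 with normexp without smeared spots). Of 7 alpha cell markers 5 were below 0, with 4 lower and 1 higher at an unadjusted p under 0.05. All 6 delta and PP cell markers were below 0, 4 of them lower by that measure. Over all genes 2.59% were higher and 3.27% lower. The part of the leukocytes in the values of Cx3cr1, Cxcr3 and Ccr7 was not tested. That of endothelial and stromal cells in Cxcl12 was not tested either.

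Cxcl13 and its receptor Cxcr5, which bring B cells into lymphoid follicles, varied widely within each diet. Their probes, at chr5:96389861-96389920 on the plus strand and chr9:44320071-44320130 on the minus strand, are shown because the agreement between both genes rests on them.
Cxcl13: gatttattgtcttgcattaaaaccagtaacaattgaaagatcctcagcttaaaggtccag
Cxcr5: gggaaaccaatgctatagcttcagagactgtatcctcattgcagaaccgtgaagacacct
Cxcl13 read -5.78, -0.73, -6.17 and -0.08 in high-fat samples, against -0.02, -3.04, 0.41 and -3.93 in control samples. Cxcr5 read -7.34, -4.15, -7.49 and -2.95 in high-fat samples, against -3.52, -4.49, -2.64 and -5.27 in control samples. High-fat replicates 1 and 3 were lowest for both genes and control replicate 3 was highest for both. Cxcl13 was above background on 2 high-fat and 4 control arrays, and Cxcr5 on 2 high-fat and 3 control arrays, so their lowest levels are only bounds. The differences, -1.54 ± 1.66 and -1.503 ± 1.097, were within the spread between samples (adjusted p 0.937 and 0.923, limma). The summed level of the 5 measured B cell markers was 0.430, 1.44, 0.375 and 2.05 in high-fat samples, against 2.19, 1.54, 3.33 and 1.02 in control samples, and Pax5 and Blk were not detected. High-fat replicates 1 and 3 were again lowest and control replicate 3 highest. The part of B cells in the values of Cxcl13 and Cxcr5 was not tested.

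Of 24 ligand and receptor pairs listed, 14 had both genes detected. Their levels were set against each other over the 8 arrays with two-sided exact permutation tests adjusted over the 14 pairs. The pairs were listed with earlier results of these data known, so these p-values are not those of a list fixed in advance. Pearson's r was above 0 for 9 of the 14. Cxcl13 and Cxcr5 had r = 0.971 (exact permutation p 4.96e-05, adjusted 6.94e-04) and Spearman's rho = 0.976 (p 3.97e-04, adjusted 0.00556). Without the 2 arrays farthest from the median of Cxcl13, r was 0.925, and over deviations from the diet means it was 0.976. The relation held without those arrays and within the diets. Neither gene was above background on every array, so the lowest values that enter r over all arrays are only bounds.

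Cx3cl1 and Cx3cr1 had r = 0.869 (exact permutation p 0.00501, adjusted 0.0330) and rho = 0.786 (p 0.0279, adjusted 0.195). The value was 0.674 without the 2 farthest arrays and 0.636 over deviations from the diet means, both below the value over all arrays. Both genes averaged lower in high-fat samples, so the difference between diets enters the r over all arrays and its p. No p was computed over the deviations. Cxcl9 and Cxcr3 had r = 0.895 (exact permutation p 0.00707, adjusted 0.0330) and rho = 0.690 (p 0.0694, adjusted 0.324). Without the 2 farthest arrays r was 0.420, so the relation rested on them, while over deviations from the diet means it was 0.882. Both genes were above background on 3 of the 4 high-fat arrays and lowest in high-fat replicate 1, at -7.39 and -6.39. The other 11 pairs did not pass, among them Ccl11 and Ccr3 at r = 0.477 and Ccl19 and Ccr7 at r = 0.03. No correlation was computed within a slide, since each holds 4 arrays and fewer than 6 were not used for one.

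**Figure D4:**
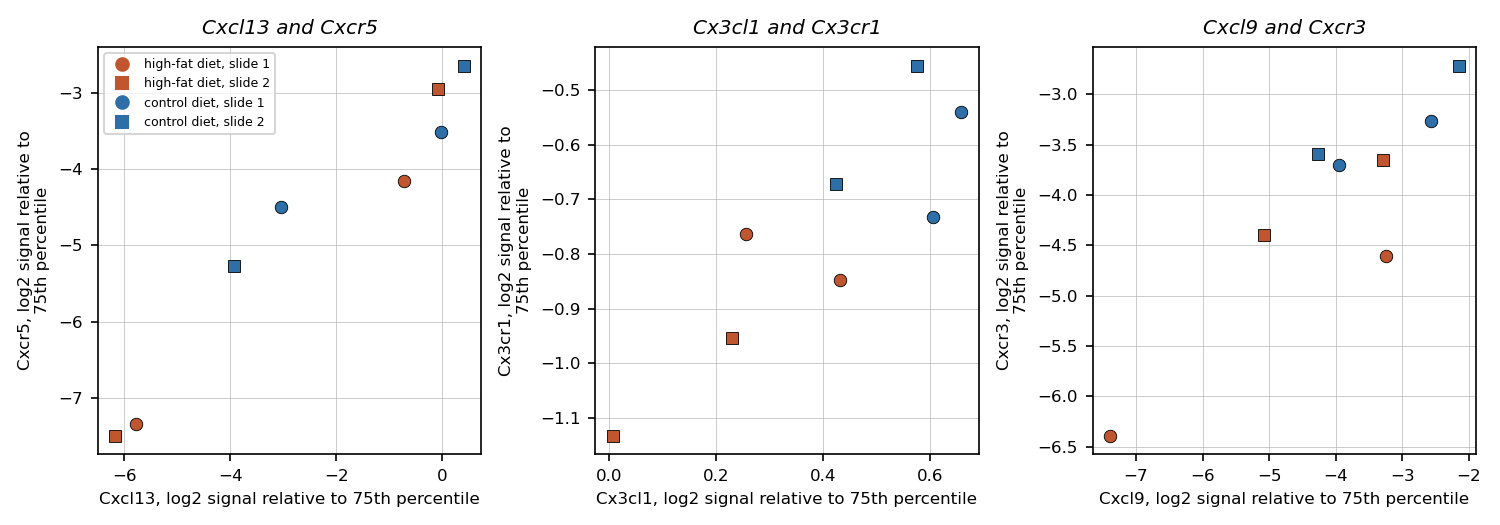
Log2 level of a receptor (vertical axes) against that of its ligand (horizontal axes), both relative to the 75th percentile of the array. The 3 pairs shown are those of 14 whose Pearson correlation over all 8 arrays, diets together, passed adjustment. The pairs were listed with earlier results of these data known. Each point is 1 of 8 arrays. Cxcl13 and Cxcr5 lie close to a line (r = 0.971). In Cx3cl1 and Cx3cr1 the high-fat arrays lie below the control arrays for the receptor (r = 0.869, or 0.636 over deviations from the diet means). In Cxcl9 and Cxcr3 1 high-fat array lies far below the others (r = 0.895, or 0.420 without the 2 farthest arrays).

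Genes that act around chemokines gave no adjusted call either (unadjusted shares over all genes are the 2.59% and 3.27% given above). Over all genes the median difference was 0.07 with median scaling and 0.13 with normexp. Of 21 measured cytokines and receptors known to induce chemokines, 11 were above 0 and 10 below, and at an unadjusted p under 0.05 the counts were 2 higher and 3 lower. Il1b, which induces Ccl2 and Cxcl1, read -3.92, -3.81, -3.97 and -3.70 in high-fat samples, against -3.58, -3.23, -3.21 and -3.32 in control samples. The diets did not overlap, and the difference was -0.51 ± 0.12 (adjusted p 0.519, limma). It was 0.45 with normexp and -0.11 with normexp without smeared spots. Il1r2, the decoy receptor of that cytokine, averaged -0.90 ± 0.41 in high-fat and -1.68 ± 0.15 in control samples (SD, n = 4 each), a difference of 0.79 ± 0.20 (adjusted p 0.562, limma). Of 27 NF-kB, STAT and IRF factors, 7 were above 0 and 20 below (13 above with median scaling), with 1 lower at an unadjusted p under 0.05. Of 39 genes of receptor signalling, 12 were above 0 and 27 below (20 above with median scaling), with 1 higher and 5 lower by that measure. The higher one was Rgs2, a regulator of G protein signalling, at 4.80 ± 0.90 in high-fat and 3.24 ± 0.20 in control samples, a difference of 1.56 ± 0.40 (adjusted p 0.562, limma). Of 14 proteases and binding partners of chemokines, 6 were above 0 and 8 below, and none had an unadjusted p under 0.05. With normexp or median scaling 10 were above 0, and 8 with normexp without smeared spots.

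Of 10 further chemokine system genes measured that bear other names, 2 were above 0 and 8 below. With normexp 5 were above 0, and 4 with normexp without smeared spots. The platelet chemokines Ppbp and Pf4 were lower at an unadjusted p under 0.05. Their probes, at chr5:91198970-91199029 and chr5:91202275-91202334, lie within the group of undetected neutrophil attractants. Ppbp read -4.43, -7.29, -7.25 and -4.89 in high-fat samples, against 1.21, -2.85, 0.49 and -2.86 in control samples. The diets did not overlap, 2 high-fat and 4 control arrays were above background, and control replicates 1 and 3 were far above the rest. High-fat replicates 2 and 3 were not above background, so their levels are only bounds. The difference of -4.96 ± 1.13 did not pass (unadjusted p 0.00218, adjusted p 0.479, limma), and over other settings it lay between -5.58 and -1.30, the last with normexp. Pf4 read -2.93, -2.83, -3.998 and -1.44 in high-fat samples, against 1.57, -1.66, 0.87 and -1.77 in control samples. Control replicates 1 and 3 were again highest and the diets overlapped, with a difference of -2.55 ± 0.86 (adjusted p 0.746, limma). A list of platelet markers, written after Ppbp and Pf4 had been seen, had 8 of 11 genes measured, 2 above 0 and 6 below. Its summed level was 0.990, 1.15, 1.19 and 1.05 in high-fat samples, against 3.72, 1.41, 2.56 and 1.11 in control samples. Control replicates 1 and 3 were highest there too, and Gp1ba, Gp6 and Tubb1 were not detected. The part of platelets in these values was not tested.

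**Figure D5:**
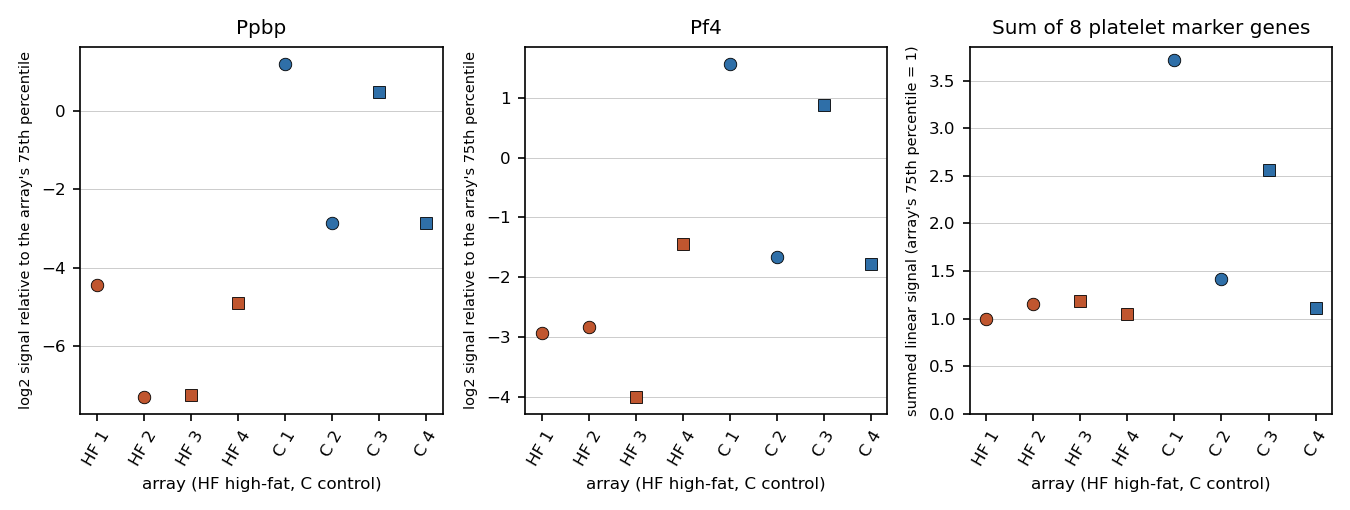
Log2 signal of Ppbp and Pf4 relative to the 75th percentile of the array (left and middle vertical axes) and the summed linear signal of 8 platelet marker genes in multiples of that percentile (right vertical axis), on each array (horizontal axes), high-fat (HF) left of control (C), circles for slide 1 and squares for slide 2. Control replicates 1 and 3 are the highest arrays in all 3 panels. The sum is 0.990 to 1.19 in high-fat and 1.11 to 3.72 in control samples.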

How the data were processed

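Total RNA of 8 samples was labelled with Cy3 and hybridised to 1-colour arrays, per the labels' protocols. The scanner files hold the processed signal of each spot as an intensity, made with Agilent Feature Extraction 11.5.1.1, per the file headers. The deposited value table holds log2 values of 28061 probes, and the submitters' processing notes name limma without a version. Over probes, its values ranked as the scanner signals of the same array did (Spearman's rho 0.997 to 0.999). Deviations from the mean of each probe correlated at 0.596 to 0.689 with those of the same array, and at most 0.325 with another's. It gave smaller differences for some dim genes, such as -0.34 for Ccl8 and -0.01 for Ccl24, where the fit reported gave -1.36 and -0.68. The sources used here do not say how it was centred or normalized.

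Levels are log2 of the processed intensity minus that of the 75th percentile of the array. Control spots and 125 to 228 outlier spots per array were dropped, and repeated spots averaged. The filter asked for a probe well above background on 4 or more of the 8 arrays and kept 26077 probes. A gene was represented by its probe of highest mean level, for 19995 genes. The 75th percentile ranged from 335.8 to 715.4 intensity units, and the median SE of a difference was 0.171. The number of arrays limits the precision.

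Diets were compared with limma 3.58.1 in R 4.3.3 (lmFit, eBayes), adjusted by Benjamini and Hochberg over all genes at 0.05. The procedure was also run on simulated data with independent normal noise. That run held no slides, no correlated replicates and no background floor, so it cannot speak for these features. Values of further probes of a gene are from a fit with every probe as a feature. Members, gene lists, pairs and alternatives were chosen with earlier results of these data known. 1 member counts in the totals but is not reported here. By rule, values of each sample are given for the 6 genes of highest level, the 8 of smallest unadjusted p and those whose diets did not overlap. Those of Ccl2, Cxcl13, Cxcr5, Il1b, Ppbp and Pf4 were added after their values were seen. In other lists up to 3 genes of smallest p were named. Positions (mm9) come from the scanner files, and sequences are the array's probes. Exons and UTRs were not assigned. Promoter windows are RefSeq's. Alternatives were normexp (offset 50) with and without smeared spots, quantile and median scaling, the deposited table, other filters and probe rules, trended robust eBayes, array weights, slide and replicate blocks, single slides, and omission of each sample in turn. The tools were Python 3.11.15 with numpy 2.4.6, pandas 2.3.3 and matplotlib 3.10.9.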

Additional observations from a re-analysis of the deposited data

Results flagged for a closer look

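In 3 of the 64 groups of 4 samples examined (32 genes in 2 diets), 1 sample stood apart from the other 3 by more than Dixon's critical value, and chance alone marks about 1 in 20 groups. Ccl5 read 1.12 in control replicate 4, where the other control samples read -0.91 to -0.83. Ccr7 read -1.79 in high-fat replicate 4, where the other high-fat samples read -4.03 to -3.73. Cxcl12 read -1.20 in high-fat replicate 3, where the other high-fat samples read -0.41 to -0.26.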

How the results depend on the processing

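No setting gave an adjusted p under 0.05 to any of the 32 genes. Over all genes the count was 0 in the fit reported, 1 with the deposited table, 1 with trended robust eBayes, and 0 to 2 when 1 sample was left out (2 without high-fat replicate 1). The count of chemokine system genes lower at an unadjusted p under 0.05 was 5 as reported, 0 with normexp, 3 with normexp without smeared spots, 2 with median scaling, 3 with the filter on all 8 arrays, 3 on slide 2 alone and 2 to 7 when 1 sample was left out. It was 3 without control replicate 1, 2 without control replicate 2 and 2 without control replicate 3. The count of higher ones was 0 as reported, 1 with no filter, 3 on slide 1 alone and 0 to 2 when 1 sample was left out (2 without control replicate 3, 1 without control replicate 4). The count above 0 was 9 as reported and 23 with normexp, which also moved the median of all genes by 0.13, and 6 to 11 when 1 sample was left out. Shares of all genes above 0 or at an unadjusted p under 0.05 were counted for the fit reported and with no filter only. Without such a share, a count under another setting cannot be read as a result about these genes.

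Of the 31 genes described singly, the sign of 13 turned with normexp, which gave 0.76 for Ccl1, 0.58 for Ccl2, 0.50 for Ccl12, 0.16 for Ccl19, 0.66 for Ccl24, 0.015 for Ccr6, 0.17 for Ccr7, 0.54 for Ccr9, 0.14 for Cxcl9, 0.61 for Cxcl14, 0.45 for Cxcl16, 0.36 for Cxcr3 and 0.44 for Cxcr5. Without the 7 smeared spots it gave 0.12 for Ccl1, 0.0309 for Ccl24 and 0.065 for Cxcl16, and the other signs of these 13 were as reported. Slide 1 alone turned Ccl5 (0.14), Ccr9 (0.0866), Cxcl11 (0.35) and Cxcl14 (0.0122). Slide 2 alone turned Ccl2 (0.36), Ccl28 (-0.12), Ccr3 (-0.71), Ccr8 (-0.12), Cxcl10 (0.73), Cxcl16 (0.14) and Cxcr6 (-0.50). The deposited table turned Ccl1 (0.015) and Cxcl16 (0.0283), median scaling Cxcl11 (0.0587) and Cxcl16 (0.0699), quantile normalization Cxcl16 (0.0614), and array weights Ccl2 (0.0713), Ccl6 (0.0743) and Cxcl16 (0.15). Leaving out 1 sample turned the sign of 9 genes, with ranges of -0.64 to 0.0283 for Ccl2, -0.0935 to 0.40 for Ccl4, -0.65 to 0.27 for Ccl5, -0.80 to 0.0204 for Ccl6, -0.17 to 0.67 for Ccr3, -0.38 to 0.28 for Ccr8, -0.18 to 0.10 for Cxcl11, -0.52 to 0.0447 for Cxcl14 and -0.22 to 0.26 for Cxcl16. Omission of some sample moved the difference by over 1.5 times, or turned it, for 28 of the 31 genes, the exceptions being Ccl19, Cx3cl1 and Cx3cr1. The cause of these changes was not tested. The signs of Cx3cl1, Cx3cr1, Cxcl12, Cxcl13, Ccl3, Ccl8, Ccl9, Ccl11 and Ccl25 did not turn in any setting run for them.

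Samples with the same replicate number correlated at 0.208, 0.397, -0.00409 and 0.304 in their deviations from the diet means. Taking the numbers as pairs asked for every value above 0.1, which 3 of the 4 met, so the fit reported has no block. With the replicate number as a block, 0 genes passed and 7 chemokine system genes were lower at an unadjusted p under 0.05. The slide block gave the same 2 counts. The share of all genes lower by that measure was not counted for either block. Ccl19 and Ccr7 were the added ones in both. The dimmest probes are the least certain, since 12 of the 32 genes were not above background on every array.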
